A study of Mus musculus with 12 samples.

Results

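A set of 10 genes of antibody-making cells was followed through libraries of sorted macrophages (MΦs). It held 4 immunoglobulin genes (Ighg2b, Igkc, Ighv1-54 and Igkv10-96) and 6 other plasma cell genes (Jchain, Mzb1, Sdc1, Tnfrsf17, Pou2af1 and Derl3), taken by gene symbol from the raw count table of 55573 genes with no filter on low counts. All 10 members were found. They were listed with earlier results of these libraries known, among them the high immunoglobulin counts after co-culture, so their values between MM-MΦs and MΦs are given as a description with no test.

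BM-derived macrophages were grown from the bone marrow of mice that carried BMI1fl/fl and Mx1-Cre (BMI1-KO) and of BMI1fl/fl mice without Cre (wt), on C57BL/6. Mice of both genotypes had received 5 doses of poly I:C at 15 mg/kg when 6 to 8 weeks old. Poly I:C evokes interferon, which turns on the Mx1 promoter that drives Cre in the BMI1-KO mice. Marrow was taken 4 weeks after the last dose. Adherent marrow cells were kept for 7 days with M-CSF at 5 ng/mL, then either left alone (MΦs) or placed for 48 hours with 5TGM1 cells (MM-MΦs), and CD11b+ F4/80+ cells were sorted for total RNA sequencing. Each of the 4 groups (BMI1-KO MM-MΦs, BMI1-KO MΦs, wt MM-MΦs and wt MΦs) had 3 libraries. The labels do not say whether the 3 replicates of a group came from separate mice, so p-values measure the spread between these samples only. 5TGM1 is a murine myeloma line of C57BL/KaLwRij origin, and its monoclonal protein is an IgG2b.

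A plasma cell carries 1 productive heavy chain and 1 productive light chain. Each chain joins a variable (V) segment, chosen from a large germline set, to a constant gene. A myeloma is a clone of such a cell, so its antibody RNA carries the same V segments in all its cells. Macrophages do not rearrange these loci, and they bind antibody through Fc receptors rather than make it. Among the other members, Sdc1 (CD138) is the usual surface marker of plasma cells, Tnfrsf17 encodes the survival receptor BCMA, Pou2af1 (OCA-B) is a coactivator of immunoglobulin promoters, Jchain links antibody polymers, and Mzb1 and Derl3 act in folding and clearing proteins of the endoplasmic reticulum (ER).

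The V segments that carried the finding were Ighv1-54 (ENSMUSG00000094787, chr12:115193675-115194134, minus strand) and Igkv10-96 (ENSMUSG00000094420, chr6:68631963-68632442, minus strand). They are shown beside the germline segment of the same coding length that is nearest to each, since reads of near-identical segments can be counted to the wrong one. The 300 bases up to the end of each coding segment, which leave out most of the leader, are from GENCODE M21 on GRCm38, which is the C57BL/6 germline and not the rearranged sequence of 5TGM1. Capitals mark the bases at which the 2 segments of a pair differ.
Ighv1-54: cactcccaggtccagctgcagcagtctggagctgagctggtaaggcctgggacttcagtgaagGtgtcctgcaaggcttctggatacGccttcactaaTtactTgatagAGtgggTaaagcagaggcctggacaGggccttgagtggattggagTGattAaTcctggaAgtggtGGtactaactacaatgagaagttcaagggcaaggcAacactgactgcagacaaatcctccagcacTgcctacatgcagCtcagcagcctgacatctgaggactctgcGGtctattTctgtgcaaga
Ighv1-63: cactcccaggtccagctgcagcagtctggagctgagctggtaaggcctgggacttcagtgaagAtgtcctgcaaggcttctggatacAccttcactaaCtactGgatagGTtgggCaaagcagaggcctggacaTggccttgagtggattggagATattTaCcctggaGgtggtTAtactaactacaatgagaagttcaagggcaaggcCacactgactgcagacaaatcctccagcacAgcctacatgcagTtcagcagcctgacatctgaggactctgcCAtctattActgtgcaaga
Igkv10-96: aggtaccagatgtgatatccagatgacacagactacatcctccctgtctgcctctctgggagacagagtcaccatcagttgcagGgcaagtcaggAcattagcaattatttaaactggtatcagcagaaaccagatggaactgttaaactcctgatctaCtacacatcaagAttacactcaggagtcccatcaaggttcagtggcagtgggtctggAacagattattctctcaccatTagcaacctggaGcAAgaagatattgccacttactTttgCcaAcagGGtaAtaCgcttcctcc
Igkv10-94: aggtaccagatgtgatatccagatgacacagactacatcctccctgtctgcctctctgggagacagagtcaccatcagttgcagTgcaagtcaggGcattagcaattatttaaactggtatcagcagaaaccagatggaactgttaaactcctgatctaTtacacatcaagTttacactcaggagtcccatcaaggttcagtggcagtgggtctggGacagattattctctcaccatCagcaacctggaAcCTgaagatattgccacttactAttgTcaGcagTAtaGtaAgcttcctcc
Ighv1-54 and Ighv1-63 (chr12:115495625-115496058) shared 326 of 351 coding bases (92.88%), and Igkv10-96 and Igkv10-94 (chr6:68704508-68704978) shared 331 of 347 coding bases (95.39%). The neighbours were nearly silent in the count table. Ighv1-63 had 0 counts in all 12 libraries. Igkv10-94 had 4 counts in the 6 MM-MΦ libraries and 0 in the 6 MΦ libraries, against 1476 and 53 counts of Igkv10-96. Of the 50-base windows of each transcript, 9.76% of Ighv1-54 and 32.58% of Igkv10-96 also occurred in a transcript of another gene, as did 4.15% of Ighg2b and 0 of Igkc. Read length was not given in the sources used here, and reads from shared windows can be lost or misassigned.

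Library totals lay between 9662279 and 11142768 counts. Bmi1, the targeted gene, was listed at 0 in the 6 BMI1-KO libraries, against 281 to 364 counts in wt MM-MΦs and 251 to 321 in wt MΦs. The deposited FPKM values of the BMI1-KO libraries imply totals 512 to 734 counts above the summed counts, and it is not known whether the zeros of Bmi1 were measured. All 12 macrophage markers examined, among them Csf1r, Adgre1 (F4/80) and Itgam (CD11b), had counts in every group, with summed levels of 16240 to 20877 CPM (counts per 1000000 of the library total) in BMI1-KO MM-MΦs, 16829 to 20357 in BMI1-KO MΦs, 16721 to 22753 in wt MM-MΦs and 17645 to 21068 in wt MΦs. Of 14 B cell genes, Blk, Vpreb3, Fcmr and Fcer2a were among those at 0 in all 12 libraries, and Bank1 and Cd72 were among 3 with counts in every library. Of 10 T cell markers, 6 were at 0 in all 12 libraries, Cd3e and Cd3g among them, while Cd4 had 73 to 229 counts in each. Of 6 NK cell markers, 5 were at 0 throughout. All 9 stromal markers, by contrast, had counts. They summed to 45.6 to 76.2 CPM in BMI1-KO MM-MΦs and 32.4 to 43.0 in BMI1-KO MΦs. In wt the sums were 26.0 to 58.2 CPM in MM-MΦs and 29.8 to 58.1 in MΦs. The library labelled wt MΦ replicate 2 stood apart from the other 5 MΦ libraries, with 342 counts of the 4 immunoglobulin members against 11 to 51, and results that rest on it are given with and without it.

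The heavy and light constant genes were abundant after co-culture and close to absent without it. Ighg2b (ENSMUSG00000076613, chr12:113302965-113307933), the constant gene of the IgG2b heavy chain, had 385, 562 and 1180 counts in the BMI1-KO MM-MΦ libraries, against 16, 0 and 9 in the BMI1-KO MΦ libraries. It had 424, 1170 and 716 counts in wt MM-MΦs, against 0, 113 and 19 in wt MΦs. Every MM-MΦ library was above every MΦ library. Igkc (ENSMUSG00000076609, chr6:70726435-70726966), the only constant gene of the kappa light chain, had 357, 586 and 1218 counts in BMI1-KO MM-MΦs, against 8, 11 and 25 in BMI1-KO MΦs. In wt the counts of Igkc were 423, 1327 and 831 in MM-MΦs and 12, 157 and 31 in MΦs, again without overlap. Unlike Ighg2b, Igkc had counts in every library. In bulk RNA, fewer cells of a type and less RNA per cell cannot be told apart.

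Both V segments had the same pattern at a lower count. Ighv1-54 had 101, 132 and 284 counts in BMI1-KO MM-MΦs, against 0, 0 and 5 in BMI1-KO MΦs, and 115, 305 and 189 counts in wt MM-MΦs, against 4, 23 and 0 in wt MΦs. Igkv10-96 had 80, 178 and 424 counts in BMI1-KO MM-MΦs, against 0, 0 and 3 in BMI1-KO MΦs, and 141, 354 and 299 counts in wt MM-MΦs, against 0, 49 and 1 in wt MΦs. Within MΦs, wt replicate 2 held 23 of the 32 counts of Ighv1-54 and 49 of the 53 counts of Igkv10-96.

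**Figure D1:**
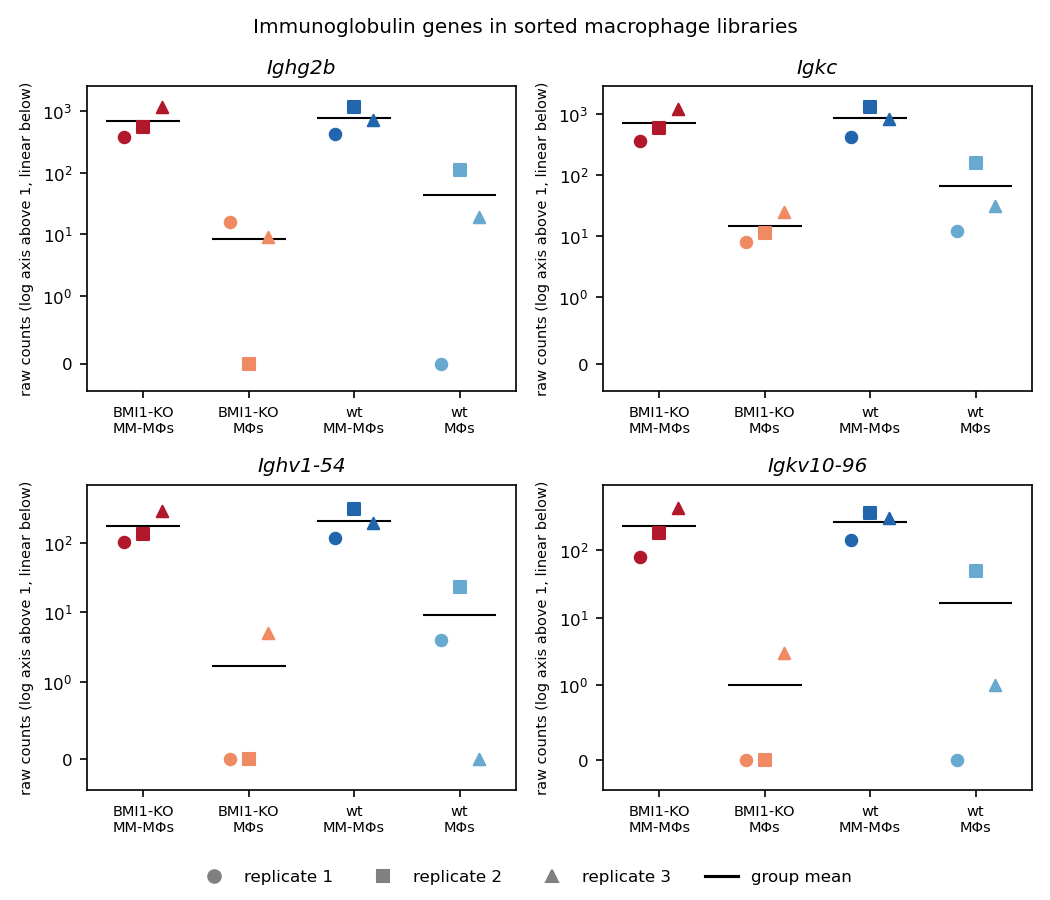
Raw counts of the 4 immunoglobulin genes in each library (y axis, log above 1 and linear below), by group (x axis); points are libraries, shaped by replicate number, and black lines are group means. All 6 MM-MΦ libraries lie above all 6 MΦ libraries for each gene, and wt MΦ replicate 2 is the highest MΦ library for each.

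The fold between cultures was large in both genotypes, and in wt it turned on 1 library. On edgeR's log2 scale, BMI1-KO MM-MΦs were above BMI1-KO MΦs by 6.36 (SE 1.27) for Ighg2b, 5.604 (SE 0.95) for Igkc, 6.59 (SE 1.19) for Ighv1-54 and 7.64 (SE 1.58) for Igkv10-96. In wt the log2 fold changes were 4.11 (SE 1.08), 3.67 (SE 0.83), 4.46 (SE 0.98) and 3.94 (SE 1.145) for the same genes. Without wt MΦ replicate 2 they became 6.44, 5.42, 6.62 and 8.79. In summed counts, Igkc was 49.2-fold higher in CPM in BMI1-KO MM-MΦs than in BMI1-KO MΦs (counting interval 36.5 to 67.9) and 12.8-fold higher in wt MM-MΦs than in wt MΦs (11.1 to 14.8), or 40.4-fold (29.9 to 56.0) without wt MΦ replicate 2. These intervals cover counting error only, not the spread between libraries.

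Counted over all 10 members, the MM-MΦ libraries lay above the MΦ libraries with no overlap for 5 members in BMI1-KO and 5 in wt, in each genotype the 4 immunoglobulin genes and Pou2af1. Of all 24317 genes with a count, 2.79% were so separated upwards in BMI1-KO and 2.36% in wt, and since the members were listed for this contrast nothing is read from their count. After the low-count filter, 6 members remained (the 4 immunoglobulin genes, Sdc1 and Pou2af1), and Jchain, Mzb1, Tnfrsf17 and Derl3 were below it.

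As a share of all counts, immunoglobulin RNA was small. The 4 immunoglobulin members took 0.00944%, 0.0148% and 0.0279% of the counts of the BMI1-KO MM-MΦ libraries, against 0.00025%, 0.0001% and 0.00039% in BMI1-KO MΦs. In wt the shares were 0.0102%, 0.0319% and 0.0191% in MM-MΦs, against 0.00015%, 0.00346% and 0.00047% in MΦs. The widest 95% Wilson interval among the MM-MΦ libraries was 0.0308% to 0.0330%, so the spread over these libraries exceeded counting error. Group means were 174 ± 94.9 CPM in BMI1-KO MM-MΦs, 2.49 ± 1.45 CPM in BMI1-KO MΦs, 204 ± 109 CPM in wt MM-MΦs and 13.6 ± 18.2 CPM in wt MΦs (SD, n = 3 each). The mean of wt MΦs without replicate 2 was 3.14 CPM. With no library of 5TGM1 cells alone analysed here, the share of RNA cannot be turned into a share of cells.

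The 4 members made up most of the antibody RNA after co-culture. Over all 395 immunoglobulin genes, of which 71 had a count, the members took 91.0% to 93.7% of the immunoglobulin counts of each BMI1-KO MM-MΦ library and 91.2% to 92.8% of each wt MM-MΦ library. In MΦs they took 16.7% to 50% in BMI1-KO and 21.3% to 70.4% in wt, the highest value being that of wt MΦ replicate 2.

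A single V segment dominated each locus after co-culture. Of 185 germline heavy V segments in the table, 28 had a count. Ighv1-54 held 1126 of the 1209 heavy V counts of the 6 MM-MΦ libraries, or 93.1% (95% Wilson interval 91.6 to 94.4), against 32 of 104, or 30.8% (22.7 to 40.2), in the 6 MΦ libraries. Of 160 kappa V segments, 22 had a count, and Igkv10-96 held 1476 of 1501 kappa V counts in MM-MΦs, or 98.3% (97.6 to 98.9), against 53 of 104, or 51.0% (41.5 to 60.4), in MΦs. Without wt MΦ replicate 2 the MΦ shares were 9 of 51 counts (17.6%) and 4 of 28 counts (14.3%). Intervals of the pooled shares cover counting error only, not the spread between libraries. In each MM-MΦ library Ighv1-54 held 90.2% to 100% of the heavy V counts and Igkv10-96 held 96.4% to 100% of the kappa V counts, both ranges covering the 2 genotypes.

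The segments next in rank were far below. Ighv1-12 (14 counts), Ighv3-6 (12) and Ighv1-9 (8) followed Ighv1-54 in the MM-MΦ libraries, and Igkv1-135 (8), Igkv10-94 (4) and Igkv4-74 (3) followed Igkv10-96. Lambda V segments had 13 counts in MM-MΦs, from Iglv3 (8) and Iglv1 (5), and 5 counts in MΦs, all of Iglv1. In MΦs, Ighv3-6 had 23 counts beside 32 of Ighv1-54. Of those 23, 22 were in wt MΦ replicate 2, and without that library the counts were 1 and 9.

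**Figure D2:**
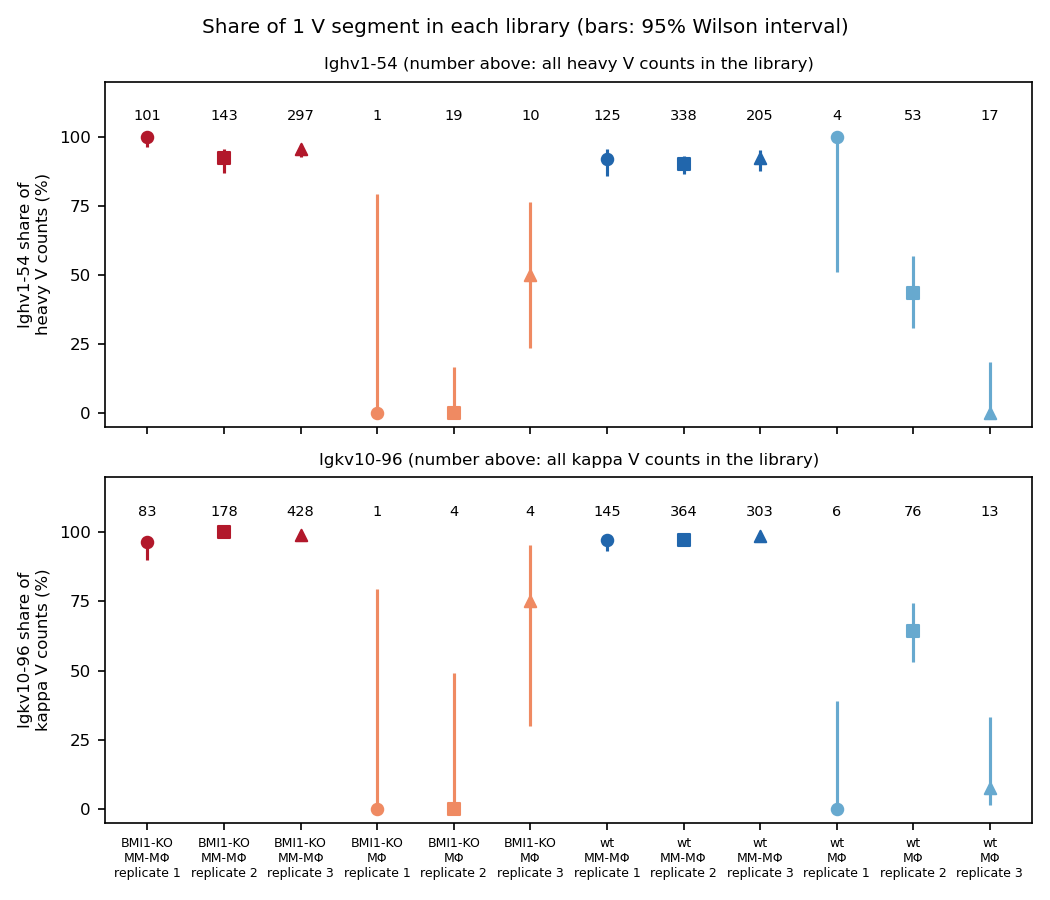
Share of heavy V counts from Ighv1-54 (top) and of kappa V counts from Igkv10-96 (bottom) in each of the 12 libraries (x axis), in percent, with 95% Wilson intervals as vertical lines and the number of V counts above each point. The 6 MM-MΦ libraries sit at 90.2% or more, wt MΦ replicate 2 at 43.4% of 53 heavy and 64.5% of 76 kappa V counts, and the other MΦ libraries scatter between 0% and 100% on 1 to 19 V counts.

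Over the MM-MΦ libraries the level of antibody RNA varied more than the ratios between its 4 genes. Igkc spanned a 3.67-fold range in CPM over the 6 MM-MΦ libraries (coefficient of variation, CV, 51.5%). Ighg2b ran at 86.2 to 107.8 counts per 100 counts of Igkc (CV 8.31%), and Ighv1-54 at 23.5 to 27.1 per 100 of Ighg2b (CV 5.64%). Igkv10-96 varied more, from 22.4 to 36.0 per 100 of Igkc (CV 17.1%), and Ighv1-54 ran at 63.2 to 126 per 100 of Igkv10-96 (CV 27.5%). BMI1-KO MM-MΦ replicate 1 was the lowest in the first of these ratios and the highest in the second. In wt MΦ replicate 2 Ighg2b stood at 72.0 per 100 of Igkc and Ighv1-54 at 20.4 per 100 of Ighg2b, both below the MM-MΦ range, and Igkv10-96 at 31.2 per 100 of Igkc, within it. In wt MΦ replicate 3 these 3 ratios were 61.3, 0 and 3.23, on 31 counts of Igkc.

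Per length, the light chain was the more abundant. In FPKM, which divides CPM by the summed exon length in kilobases, Igkc averaged 128.5 ± 70.0 in BMI1-KO MM-MΦs, beside 157.2 ± 89.6 in wt MM-MΦs (SD, n = 3 each). Igkv10-96 averaged 59.7 ± 42.4 and 71.3 ± 32.1 FPKM, Ighv1-54 averaged 43.5 ± 21.3 and 52.3 ± 27.1 FPKM, and Ighg2b averaged 25.2 ± 12.9 and 27.9 ± 14.9 FPKM in BMI1-KO MM-MΦs and wt MM-MΦs. The SDs of neighbours in this order overlap, since the libraries differ in level. Within libraries, Ighv1-54 was above Ighg2b in 6 of 6, by 1.67-fold to 1.93-fold, and it was below Igkv10-96 in 5 of 6, with a ratio of 0.602 to 0.821 and an exception of 1.20 in BMI1-KO MM-MΦ replicate 1. The length of Ighg2b (2678 bases) sums all its annotated exons, and FPKM over a shorter transcript would be higher.

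**Figure D3:**
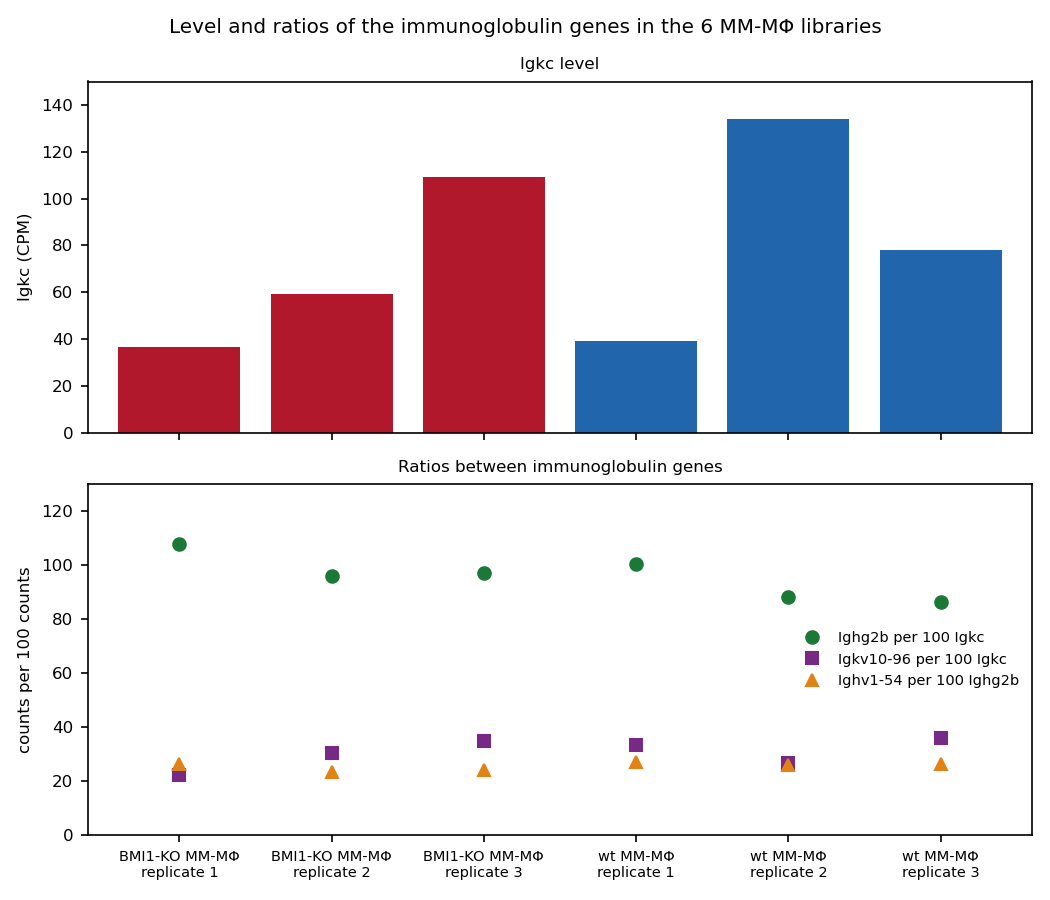
Igkc in CPM (top, bars) and the ratios between immunoglobulin genes in counts per 100 counts (bottom, points) in the 6 MM-MΦ libraries (x axis), BMI1-KO at left and wt at right. Igkc differs up to 3.67-fold between libraries while Ighg2b stays between 86.2 and 107.8 per 100 of Igkc.

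The level of antibody RNA did not pass a test of genotype. In MM-MΦs, the log2 fold changes of BMI1-KO against wt were −0.16 (SE 0.93) for Ighg2b, −0.29 (SE 0.73) for Igkc, −0.27 (SE 0.79) for Ighv1-54 and −0.26 (SE 0.97) for Igkv10-96, each with an edgeR adjusted p = 0.9994. With SEs larger than the differences, a sizeable difference in either direction could not be detected at this number of libraries. Without wt MM-MΦ replicate 2, the highest library, all 4 log2 fold changes turned positive (0.08 to 0.36). Of the 6 members tested, edgeR called 0 in this comparison, where it called 9 of 14197 genes (0.0634%). Of the members, Sdc1 alone had an unadjusted p under 0.05, beside 712 of all 14197 genes. It alone was called by DESeq2, which called 0.627% of all genes, and limma-voom called 0 members.

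In MΦs the same genes had log2 fold changes of −2.40 (Ighg2b, SE 1.24, edgeR adjusted p = 0.9216), −2.23 (Igkc, SE 0.90, adjusted p = 0.8119), −2.40 (Ighv1-54, SE 1.34) and −3.96 (Igkv10-96, SE 1.73) in BMI1-KO against wt. Without wt MΦ replicate 2 they became −0.07, −0.49, −0.24 and 0.89. Ighv1-54, Igkv10-96 and Pou2af1 passed the low-count filter through the MM-MΦ libraries alone, so nothing is read from their tests in MΦs. Of the 6 members in the fit, edgeR called 0, against 0.0493% of all genes. Sdc1 and Igkc had an unadjusted p under 0.05, beside 819 of all 14197 genes. DESeq2 called Sdc1, beside 0.575% of all genes, and limma-voom called 0 members. The difference between genotypes of the co-culture effect also rests on the MΦ libraries, so nothing is read from its test for Ighv1-54, Igkv10-96 and Pou2af1. For this difference edgeR called 0 of the 6 members and 0 of 14197 genes. At an unadjusted p under 0.05 there were 129 genes, and DESeq2 and limma-voom called 0.

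Among the other plasma cell genes, Pou2af1 differed between cultures as the antibody genes did, and Sdc1 did not. Pou2af1 (ENSMUSG00000032053, chr9:51213708-51240080) had 11, 32 and 37 counts in BMI1-KO MM-MΦs, against 0, 0 and 0 in BMI1-KO MΦs. In wt it had 7, 35 and 7 counts in MM-MΦs, against 0, 1 and 0 in MΦs. Set against a floor of 3 counts over the group, it was 26.7-fold higher in BMI1-KO MM-MΦs than in BMI1-KO MΦs, with a counting interval that began at 21.2. In wt the ratio was 48.5 with a counting interval of 8.30 to 1953. The count of Pou2af1 per 100 counts of Igkc ran from 0.842 to 5.46 over the 6 MM-MΦ libraries (CV 56.5%), a wider spread than between the antibody genes, on counts of 7 to 37. Between genotypes Pou2af1 had a log2 difference of 0.65 in MM-MΦs (SE 0.79, edgeR adjusted p = 0.9994).

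Sdc1 (ENSMUSG00000020592, chr12:8771323-8793715) was present in every library. It had 188, 145 and 153 counts in BMI1-KO MM-MΦs, against 207, 77 and 157 in BMI1-KO MΦs, and 607, 1298 and 362 counts in wt MM-MΦs, against 827, 1169 and 284 in wt MΦs. The MM-MΦ and MΦ libraries of each genotype overlapped. The log2 fold change between cultures was 0.16 (SE 0.61) in BMI1-KO and −0.01 (SE 0.59) in wt, or 0.48 in wt without wt MΦ replicate 2. The libraries of the 2 genotypes, by contrast, did not overlap in either culture, and Sdc1 was lower in BMI1-KO.

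In MM-MΦs, Sdc1 averaged 15.9 ± 2.94 CPM in BMI1-KO and 73.7 ± 50.9 CPM in wt (SD, n = 3 each). The log2 fold change was −2.23 (SE 0.63), which edgeR did not call after adjustment (adjusted p = 0.4957), and DESeq2 did (adjusted p = 0.0259). In MΦs, Sdc1 averaged 14.5 ± 7.07 CPM in BMI1-KO and 74.8 ± 46.1 CPM in wt. There the log2 fold change was −2.40 (SE 0.63), with an adjusted p = 0.4436 by edgeR and 0.0116 by DESeq2. Without wt MM-MΦ replicate 2 the difference in MM-MΦs was −1.52 (edgeR adjusted p = 0.9993), and without wt MΦ replicate 2 that in MΦs was −1.91 (adjusted p = 0.9802). Of all genes with a count, 3.23% in MM-MΦs and 3.48% in MΦs were lower in BMI1-KO with no overlap, and of the members this held for Sdc1 in MM-MΦs and for Sdc1 and Jchain in MΦs. Neutrophil markers summed to 16.9 to 157 CPM in BMI1-KO MM-MΦs and 7.22 to 19.4 in wt MM-MΦs, and to 8.84 to 79.9 in BMI1-KO MΦs and 5.98 to 16.3 in wt MΦs. The highest sum in MM-MΦs was that of BMI1-KO replicate 2, with 596 counts of Ngp against 44 and 53 in replicates 1 and 3 of its group. Of the 4 neutrophil markers tested, 0 were called between genotypes in either culture by edgeR, DESeq2 or limma-voom, and 0 had groups that did not overlap. At an unadjusted p under 0.05 were 3 in MM-MΦs and 0 in MΦs, beside 712 and 819 of all 14197 genes. All 9 markers had counts, Ly6g being at 0 in both MM-MΦ groups and Elane in both MΦ groups, and their part in the values of Sdc1 was not tested.

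**Figure D4:**
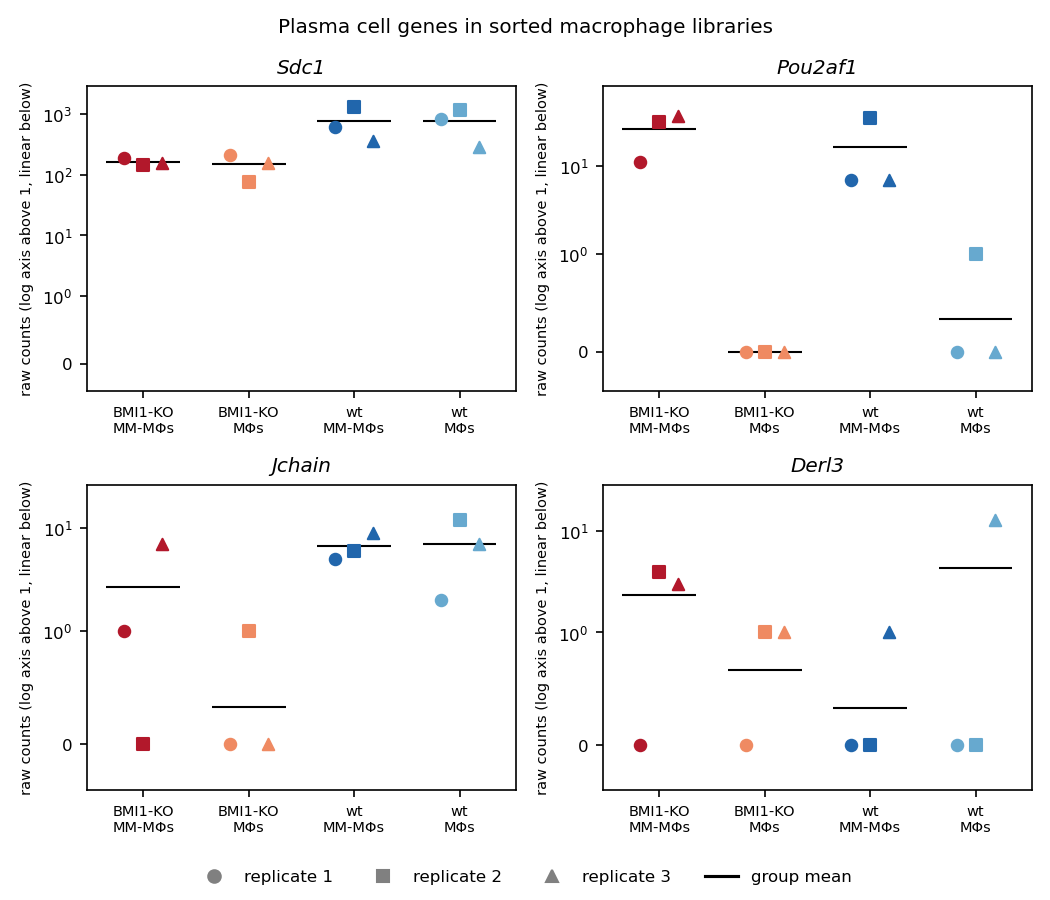
Raw counts of 4 plasma cell genes in each library (y axis, log above 1 and linear below), by group (x axis); points are libraries, shaped by replicate number, and black lines are group means. Pou2af1 is at 0 or 1 in all MΦ libraries and at 7 to 37 in MM-MΦ libraries, while Sdc1 has 77 to 207 counts in BMI1-KO libraries and 284 to 1298 in wt libraries of either culture.

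The other 4 members were at or near the limit of detection. Jchain (ENSMUSG00000067149, chr5:88519809-88527891) had 1, 0 and 7 counts in BMI1-KO MM-MΦs, against 0, 1 and 0 in BMI1-KO MΦs, and 5, 6 and 9 counts in wt MM-MΦs, against 2, 12 and 7 in wt MΦs. It did not separate the cultures in wt, where its summed counts were 20 in MM-MΦs and 21 in MΦs. Mzb1 (ENSMUSG00000024353, chr18:35647267-35649367) had 5 counts in wt MM-MΦ replicate 3 and 0 in the other 11 libraries. A count of 0 allows up to 3 counts in a library. Tnfrsf17 (ENSMUSG00000022496, chr16:11313812-11320074) had 1, 0 and 2 counts in BMI1-KO MM-MΦs, against 0 in each of the BMI1-KO MΦ libraries, and 1 count in wt MM-MΦs, against 1 in wt MΦs. Derl3 (ENSMUSG00000009092, chr10:75893413-75895941) reached 4 counts at most in BMI1-KO MM-MΦs, 1 in BMI1-KO MΦs, 1 in wt MM-MΦs, and its 13 counts in wt MΦs came from replicate 3 alone. For Mzb1, Tnfrsf17 and Derl3 no difference between groups was detectable at this depth.

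Among the other constant genes, Ighm and the lambda genes were counted in both genotypes, and Ighg2c and Igha mainly in wt. Ighm, the constant gene of IgM, had 48, 75 and 101 counts in BMI1-KO MM-MΦs, against 22, 28 and 62 in BMI1-KO MΦs, and 47, 84 and 60 in wt MM-MΦs, against 37, 58 and 39 in wt MΦs. The groups of Ighm overlapped, with log2 fold changes of 1.03 in BMI1-KO (SE 0.41, edgeR adjusted p = 0.9999) and 0.52 in wt (SE 0.40, adjusted p = 1). With the replicate number as a block within genotype, which pairs each MM-MΦ library with the MΦ library of its number, the adjusted p was 0.0438 in BMI1-KO and 0.830 in wt. Ighe was at 0 in all 12 libraries. Ighg2c, which shared 5.49% of its 50-base windows with Ighg2b, had 7, 0 and 0 counts in BMI1-KO MM-MΦs, against 0, 1 and 0 in BMI1-KO MΦs, and 1, 38 and 14 in wt MM-MΦs, against 0, 17 and 12 in wt MΦs. Igha was likewise seen mainly in wt, with 5, 35 and 17 counts in MM-MΦs and 7, 6 and 9 in MΦs, against 0 to 1 in BMI1-KO MM-MΦs and 0 to 3 in BMI1-KO MΦs.

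The lambda constant genes had counts in all 6 MM-MΦ libraries and in none of the 6 MΦ libraries. Iglc1 had 4, 19 and 13 counts in BMI1-KO MM-MΦs and 5, 23 and 6 in wt MM-MΦs, and 0 in all 6 MΦ libraries. Iglc2 had 5, 7 and 24 counts in BMI1-KO MM-MΦs and 10, 28 and 23 in wt MM-MΦs, and Iglc3 had 16, 4 and 29 in BMI1-KO MM-MΦs and 11, 20 and 4 in wt MM-MΦs, with 0 in all 6 MΦ libraries for both. Against a floor of 3 counts over the group, Iglc1 and Iglc2 were each 12.03-fold and Iglc3 16.4-fold higher in BMI1-KO MM-MΦs than in BMI1-KO MΦs. Their counting intervals began at 9.29 for Iglc1 and Iglc2 and at 12.8 for Iglc3. Iglc4 had no count in any library. Since Iglc1, Iglc2 and Iglc3 passed the low-count filter through the MM-MΦ libraries alone, no test between cultures is given for them. Of the 50-base windows of Iglc3, 22.3% were shared with other transcripts, Iglc2 among them, so counts of these genes can be split between copies.

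Regulators that plasma cells share with macrophages showed a mixed picture. Of 11 transcription factors and regulators tested, 0 passed in either genotype by edgeR, DESeq2 or limma-voom, where edgeR called 0.19% of all genes in BMI1-KO and 0.0916% in wt. At an unadjusted p under 0.05 there were 1 in BMI1-KO and 2 in wt, beside 2.94% and 1.99% of all genes. Of the 2 in wt, 1 was Ikzf3, which passed the low-count filter through MM-MΦ libraries alone, so nothing is read from it. Their median log2 fold changes were 0.19 in BMI1-KO and 0.20 in wt, beside −0.0071 and 0.0027 over all genes tested. With the replicate block, which called 2.17% of all genes in BMI1-KO and 1.1% in wt, Irf4 and Pou2f2 were called in BMI1-KO and Pou2f2 in wt. Pou2f2 (OCT2), the DNA-binding partner of the Pou2af1 protein, had 1557, 919 and 807 counts in BMI1-KO MM-MΦs, against 1064, 599 and 548 in BMI1-KO MΦs, and 1270, 638 and 545 counts in wt MM-MΦs, against 824, 505 and 343 in wt MΦs. Every MM-MΦ library was above the MΦ library of its number, with a blocked log2 fold change of 0.60 in BMI1-KO (adjusted p = 0.000462) and 0.55 in wt (adjusted p = 0.0023). Irf4, which controls plasma cell differentiation and also acts in macrophages, had 79, 83 and 99 counts in BMI1-KO MM-MΦs, against 33, 37 and 21 in BMI1-KO MΦs, and 86, 167 and 109 counts in wt MM-MΦs, against 49, 133 and 53 in wt MΦs. The BMI1-KO groups of Irf4 did not overlap, with a log2 difference of 1.53 (SE 0.45, edgeR adjusted p = 0.6254, or 0.00119 with the replicate block). Ikzf3 (Aiolos), a lymphoid factor, had 2, 18 and 26 counts in BMI1-KO MM-MΦs, against 9, 0 and 3 in BMI1-KO MΦs, and 6, 24 and 8 in wt MM-MΦs, against 1, 1 and 0 in wt MΦs. Its log2 fold changes were 1.85 in BMI1-KO (SE 1.07) and 4.04 in wt (SE 1.36), and no test between cultures is given for it. Prdm1 (BLIMP-1), by contrast, averaged 131 ± 42.5 CPM in BMI1-KO MM-MΦs, 145 ± 38.3 in BMI1-KO MΦs, 192 ± 60.6 in wt MM-MΦs and 172 ± 61.1 in wt MΦs, and the groups of Prdm1 overlapped.

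Of the plasma cell surface genes, 7 of 11 were tested and 0 passed by edgeR, DESeq2 or limma-voom in either genotype. In each genotype 2 had an unadjusted p under 0.05, Cd38 and Lax1, beside 2.94% of all genes in BMI1-KO and 1.99% in wt. Lax1 passed the low-count filter through MM-MΦ libraries alone, so nothing is read from its p. Cd38, an ectoenzyme of plasma cells and of macrophages, had 1125, 583 and 337 counts in BMI1-KO MM-MΦs, against 289, 322 and 151 in BMI1-KO MΦs, and 1284, 408 and 632 counts in wt MM-MΦs, against 257, 287 and 229 in wt MΦs. Its log2 fold changes were 1.48 (SE 0.53, edgeR adjusted p = 0.9999) and 1.59 (SE 0.53, adjusted p = 1), and with the replicate block it rose in both, with adjusted p of 0.000788 and 0.000527. The order of Cd38 over the MM-MΦ libraries was not that of Igkc: BMI1-KO replicate 3 and wt replicate 2, the libraries highest in Igkc, were lowest in Cd38 of their groups. Lax1, a lymphocyte membrane adaptor, had 8, 18 and 31 counts in BMI1-KO MM-MΦs, against 0, 0 and 2 in BMI1-KO MΦs, and 0, 38 and 12 counts in wt MM-MΦs, against 0, 0 and 3 in wt MΦs. Within each genotype the order of the MM-MΦ libraries in Lax1 was that in Igkc. Slamf7, a surface receptor of plasma cells and macrophages, was abundant in all groups, with 162 ± 134 CPM in BMI1-KO MM-MΦs, 138 ± 102 in BMI1-KO MΦs, 228 ± 115 in wt MM-MΦs and 193 ± 110 in wt MΦs. Between genotypes, Cd79b, a chain of the B cell receptor, had 174, 180 and 208 counts in BMI1-KO MM-MΦs, against 107, 69 and 120 in wt MM-MΦs. Its log2 fold change was 0.96 (SE 0.24), with an adjusted p of 0.4155 by edgeR and 0.0393 by DESeq2. The difference was also seen without co-culture, with 108, 189 and 204 counts in BMI1-KO MΦs, against 80, 64 and 114 in wt MΦs. There the log2 fold change was 0.97 (SE 0.25), with an adjusted p of 0.3831 by edgeR and 0.0475 by DESeq2. DESeq2 called 0.627% of all genes between genotypes in MM-MΦs and 0.575% in MΦs.

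Genes of antibody secretion and ER folding, which plasma cells use heavily and all secretory cells express, did not pass the test singly. All 39 were tested, 0 passed by edgeR, DESeq2 or limma-voom in either genotype, and 0 had an unadjusted p under 0.05. In BMI1-KO, 27 were above 0 and 12 below, with a median log2 fold change of 0.07, and in wt 29 were above and 10 below, with a median of 0.09. Of all genes tested, 6908 were above 0 and 7288 below in BMI1-KO, with a median of −0.0071, and 7202 were above and 6994 below in wt, with a median of 0.0027. Hspa5 (BiP), an ER chaperone named for binding immunoglobulin, averaged 580 ± 160 CPM in BMI1-KO MM-MΦs, 505 ± 162 in BMI1-KO MΦs, 568 ± 128 in wt MM-MΦs and 482 ± 137 in wt MΦs. The chaperone Hsp90b1 averaged 624 ± 202 CPM in BMI1-KO MM-MΦs and 557 ± 215 in BMI1-KO MΦs, and 652 ± 277 in wt MM-MΦs and 573 ± 215 in wt MΦs. With the replicate block, Pdia4, a protein disulfide isomerase, was called in BMI1-KO (blocked log2 fold change 0.37, adjusted p = 0.0302) and 0 of the 39 in wt.

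The BCMA system, in which BAFF (Tnfsf13b) and APRIL (Tnfsf13) made by myeloid cells support plasma cells, had 3 of 4 genes tested and 0 passed in any comparison by edgeR, DESeq2 or limma-voom. Between genotypes in MM-MΦs, 2 had an unadjusted p under 0.05, beside 712 of all 14197 genes. Tnfsf13b had 8, 43 and 30 counts in BMI1-KO MM-MΦs, against 9, 14 and 7 in wt MM-MΦs (log2 fold change 1.41 with SE 0.55, and an edgeR adjusted p = 0.8444). Tnfsf13 had 62, 30 and 29 counts in BMI1-KO MM-MΦs, against 73, 102 and 64 in wt MM-MΦs (log2 fold change −0.95, SE 0.40, adjusted p = 0.9734). The receptor TACI (Tnfrsf13b) averaged 37.0 ± 3.58 CPM in BMI1-KO MM-MΦs, beside 32.6 ± 3.73 in wt MM-MΦs.

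Among the markers of the sorted cells, Fcgr1 had the largest difference between cultures of those named by the rule for genes. Fcgr1, which encodes the high-affinity Fc receptor for IgG, had 1327, 1414 and 1814 counts in BMI1-KO MM-MΦs, against 574, 835 and 679 in BMI1-KO MΦs, and 1488, 792 and 1459 counts in wt MM-MΦs, against 577, 407 and 842 in wt MΦs. Its log2 fold changes were 1.15 (SE 0.24, edgeR adjusted p = 0.1327) and 1.06 (SE 0.24, adjusted p = 0.2899), and it was called by DESeq2 in both and with the replicate block in both (adjusted p of 1.02e-06 and 6.97e-06). Of the 12 macrophage markers, edgeR and limma-voom called 0 in either genotype. At an unadjusted p under 0.05 were 2 in BMI1-KO and 1 in wt, beside 2.94% and 1.99% of all genes. DESeq2 called 1 of the 12 in each genotype, Fcgr1. The replicate block called 6 of the 12 in BMI1-KO, Fcgr1 among them, beside 2.17% of all genes. In wt it called 1, Fcgr1, beside 1.1% of all genes. Among 14 B cell genes, 3 were tested and 0 passed by edgeR, DESeq2 or limma-voom, with 1 at an unadjusted p under 0.05 in each genotype. That was Cd72, an inhibitory coreceptor of B cells that macrophages also carry, which had log2 fold changes of 0.85 (SE 0.26) in BMI1-KO and 0.59 (SE 0.26) in wt and was called with the replicate block in both. The summed level of the 14 genes was 166 to 220 CPM in BMI1-KO MM-MΦs, 102 to 145 in BMI1-KO MΦs, 152 to 155 in wt MM-MΦs and 113 to 131 in wt MΦs, and of the defining genes Ms4a1 was at 0 in all 6 MM-MΦ libraries. Pax5, a transcription factor of the B lineage, had 8, 4 and 12 counts in BMI1-KO MM-MΦs, against 0, 3 and 0 in BMI1-KO MΦs, and 3, 7 and 6 in wt MM-MΦs, against 0, 1 and 0 in wt MΦs. The part of the B cell genes in the immunoglobulin values was not tested.

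The genes outside the immunoglobulin set whose pattern was most like that of Ighg2b and Igkc were found by Pearson correlation of log2 CPM over the 12 libraries with the mean of the 2 genes. The libraries fall into MM-MΦs and MΦs, so the correlation over 12 mostly restates that difference, and it is given as a description beside that over the 6 MM-MΦ libraries. For the members themselves, r over the 12 libraries was 0.99 for Igkv10-96, 0.96 for Ighv1-54, 0.91 for Pou2af1 and 0.24 for Sdc1. Over the 6 MM-MΦ libraries r was 0.94, 0.99, 0.67 and 0.29 in the same order. The 10 genes were Nlrp4f (0.94), Nedd4 (0.93), Il5ra (0.91), Filip1 (0.91), Phf11d (0.90), Gm4811 (0.90), Ifit1bl1 (0.90), Strc (0.89), Alpl (0.89) and Parp14 (0.88).

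Within the 6 MM-MΦ libraries these genes fell apart. Nlrp4f, Il5ra, Filip1, Strc and Alpl had correlations of 0.94, 0.79, 0.86, 0.87 and 0.81 with the antibody genes, and Nedd4 had 0.72. Phf11d, Gm4811, Ifit1bl1 and Parp14 had 0.12, −0.08, 0.22 and 0.04. The genes were picked over libraries that include these 6, so high values are partly built in and are a description only. Il5ra, the interleukin 5 receptor chain of eosinophils and some B lineage cells, had 10, 23 and 37 counts in BMI1-KO MM-MΦs, against 0 in all 3 BMI1-KO MΦ libraries, and 3, 29 and 29 in wt MM-MΦs, against 0, 1 and 0 in wt MΦs. Alpl, tissue-nonspecific alkaline phosphatase, had 2, 20 and 32 counts in BMI1-KO MM-MΦs, against 0 in all 3 BMI1-KO MΦ libraries, and 8, 24 and 28 in wt MM-MΦs, against 1, 2 and 0 in wt MΦs. Strc, which encodes stereocilin, had 4, 18 and 22 counts in BMI1-KO MM-MΦs, against 0 in all 3 BMI1-KO MΦ libraries, and 2, 26 and 11 in wt MM-MΦs, against 0, 1 and 0 in wt MΦs. Nlrp4f had 5, 6 and 14 counts in BMI1-KO MM-MΦs, against 0 in all 3 BMI1-KO MΦ libraries, and 4, 27 and 12 in wt MM-MΦs, against 0, 3 and 0 in wt MΦs. Parp14, an ADP-ribosyltransferase of the interferon response, was of another kind, with 2819, 3868 and 3345 counts in BMI1-KO MM-MΦs, against 1649, 1766 and 1626 in BMI1-KO MΦs, and 2964, 3101 and 3462 in wt MM-MΦs, against 1689, 1753 and 1572 in wt MΦs.

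**Figure D5:**
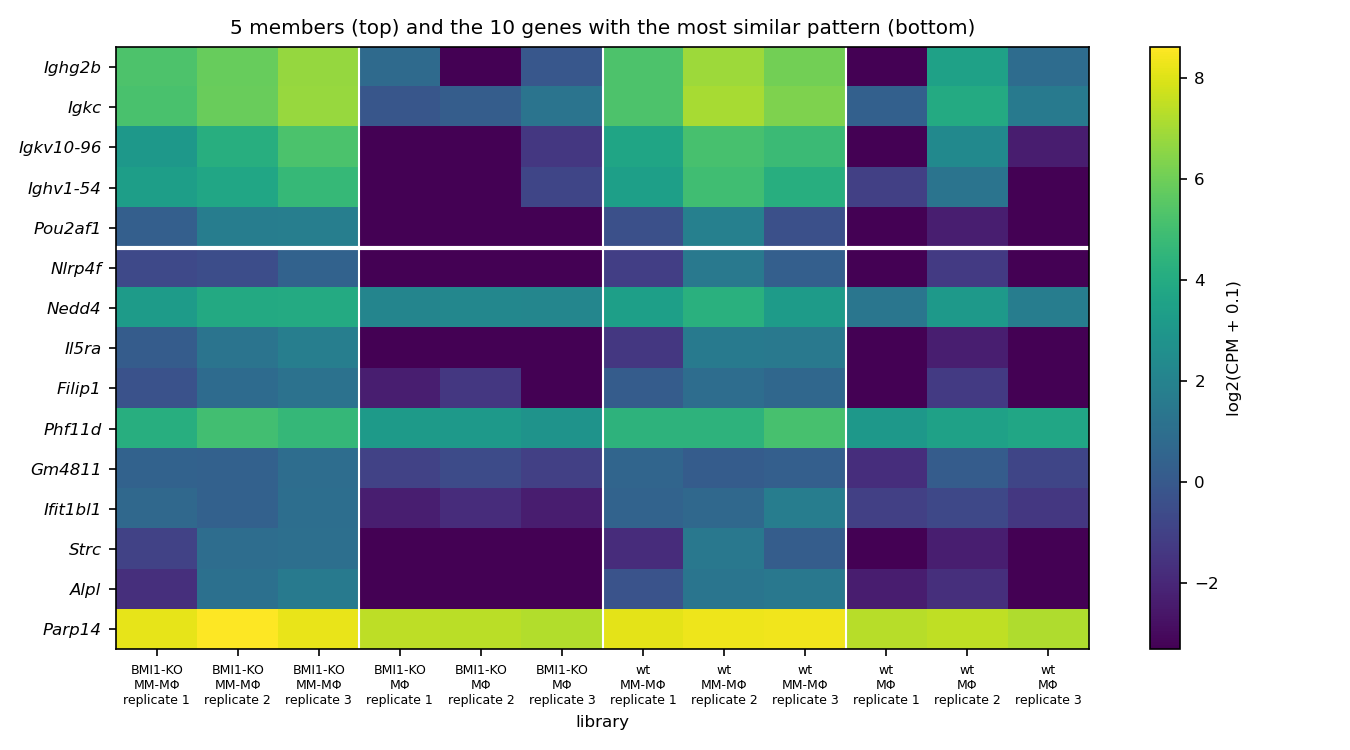
Level of 5 members (top) and of the 10 genes with the most similar pattern (bottom) in each library (x axis), as log2 of CPM plus 0.1 in colour. Il5ra, Strc, Alpl and Nlrp4f have 0 to 3 counts in each MΦ library, while Nedd4, Phf11d and Parp14 have counts in all 12 libraries.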

How the data were processed

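RNA-seq libraries of sorted CD11b+ F4/80+ macrophages were examined, 12 in 4 groups of 3. The authors deposited raw counts for 55573 genes and, per library, FPKM values over summed exon lengths. By the submitters' notes the tools were HISAT2 2.0.1 for alignment to GRCm38 (mm10), HTSeq 0.6.1, DESeq2, cutadapt 1.9.1 and bcl2fastq 2.17.1.14. How reads that map to several places were treated, which bears on V segments, was not given in the sources used here, nor were read length, strand setting and annotation release. The FPKM values served for comparisons between genes and for the check of totals, and the counts for all else.

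Counts were fitted with edgeR 4.0.16 (R 4.3.3): TMM, filterByExpr (minimum count 10, minimum total 15), a mean for each of the 4 groups, the quasi-likelihood test and Benjamini-Hochberg adjustment over 14197 genes, with a threshold of 0.05. The fit was tested on simulated data. Folds on the log2 scale come from this fit, and shares carry 95% Wilson intervals. Library totals were 9662279 to 11142768 counts. Intervals and floors (3 counts) cover counting error only.

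The labels do not say whether the replicate numbers pair MM-MΦ with MΦ libraries. Within each genotype, deviations from group means correlated across genes between libraries of the same number. The correlations were 0.64, 0.18 and 0.60 in BMI1-KO and 0.55, 0.36 and 0.73 in wt. The replicate block within genotype rests on this check alone, and the main fit has no block. Between genotypes the correlations were 0.50, 0.03 and 0.51 in MM-MΦs and 0.48, −0.03 and 0.50 in MΦs, and since those of number 2 were not above 0.1 no pairing was assumed there.

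Alternatives were DESeq2 1.42.0, limma-voom (limma 3.58.1), other scalings and filters, the 6 compared libraries alone, a replicate block and each library left out. The members and gene lists were chosen with earlier results of these data known. Named genes were all members and, for each list, the 3 genes with the highest mean CPM and the 3 with the smallest unadjusted p in each co-culture comparison, plus 1 for genotype in MM-MΦs; the 4 leading V segments per locus; and the 10 genes most alike in pattern. Of these, those with informative counts are described. Bmi1, Igha, Ighe, Pax5, Cd4, Ngp and the B, T and NK cell genes at 0 were named after their values were seen. Pou2f2 and Pdia4 were named because the replicate block called them in these same data.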

Additional observations from a re-analysis of the deposited data

How the results depend on the processing

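The members' log2 fold changes between MM-MΦs and MΦs kept their direction under all alternatives for the 4 immunoglobulin genes and Pou2af1, and their size in wt turned on wt MΦ replicate 2. The number of genes called varied widely. Between BMI1-KO MM-MΦs and BMI1-KO MΦs it was 27, against 42 with no filter, 91 by DESeq2, 13 with library totals alone, 0 when fitted to the 6 libraries alone, 308 with the replicate block (263 higher, 45 lower) and 4 to 23 without 1 replicate. Between wt MM-MΦs and wt MΦs it was 13, against 22 with no filter, 58 by DESeq2, 2 by limma-voom, 6 with library totals alone, 6 when fitted to the 6 libraries alone, 156 with the replicate block (150 higher, 6 lower) and 0 to 3 without 1 replicate. Between genotypes in MM-MΦs it was 9, against 21, 89 and 4 with no filter, DESeq2 and the 6 libraries alone, and 3 to 6 without 1 replicate. In MΦs it was 7, against 14, 80 and 2 in the same order, and 2 to 4 without 1 replicate. The replicate block over all libraries, for which number 2 did not correlate between genotypes, gave 181 and 206, and called Sdc1 in MΦs (adjusted p = 0.0445) and not in MM-MΦs (0.0546). For the difference between genotypes of the co-culture effect, the block called 1 gene in place of 0. The cause of these changes was not tested.

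Some genotype differences of members, none of them called, changed sign when 1 library was left out. In MM-MΦs they ran from −0.62 to 0.36 for Ighg2b, −0.79 to 0.25 for Igkc, −0.72 to 0.23 for Ighv1-54 and −0.95 to 0.12 for Igkv10-96, positive without wt MM-MΦ replicate 2 for all 4 and without BMI1-KO MM-MΦ replicate 1 for Ighg2b (0.10) and Igkv10-96 (0.12). In MΦs Igkv10-96 ran from −7.10 to 0.89, positive without wt MΦ replicate 2, where Pou2af1 had no value since both groups were at 0. The difference of the co-culture effect ran from −0.082 to 3.19 for Ighg2b, −0.024 to 5.95 for Ighv1-54, −1.14 to 6.85 for Igkv10-96 and −0.31 to 0.88 for Sdc1, with the lowest value of each without wt MΦ replicate 2. Counting only V segments with at least 10 counts in a library raised the share of Ighv1-54 to 100% in BMI1-KO MM-MΦs, beside 98.3% in wt MM-MΦs, and that of Igkv10-96 to 100% in wt MM-MΦs. In MM-MΦs this drops counts of other segments only, so the shares could not fall and nothing is read from the rise. Of the 10 genes most alike in pattern, 5 were also among the first 10 by Spearman correlation. Depth limits the MΦ libraries most, where the V segments had 0 to 5 counts in 5 of 6.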
